A study of Mus musculus with 6 samples.

Results

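C-type lectin receptors are surface proteins with which myeloid cells bind sugars and other ligands on microbes and dying cells. The 10 described here, for which dendritic cells and macrophages are known, were taken from a list of names set with earlier results of these data known, namely Cd209a, Clec10a, Mgl2, Clec4n, Clec4d, Clec4e, Clec7a, Clec9a, Clec12a and Mrc1. All 10 passed the filter on low counts and stood among 21849 genes tested. Their transcripts were counted by RNA-seq in bone marrow-derived dendritic cells (BMDCs) of wild-type (WT) C57BL/6 mice and of mice with a global deletion of Nfkb2, which encodes p100, the precursor of the noncanonical NF-κB subunit p52. Each genotype had 3 libraries, from independent cultures. All cultures received GM-CSF at 20 ng/mL for 5 days and then GM-CSF with IL-4 at 10 ng/mL for 4 days, and unstimulated cells were taken on day 9. Because the deletion was global and not limited to dendritic cells, the precursors in the marrow carried it too. The comparison asked which basal transcripts differ in BMDCs of mice with this deletion, which is not the same as loss of all noncanonical signaling.

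The receptors fall into groups by what they bind and how they signal. Mgl2 and Clec10a bind galactose-type sugars, and Cd209a and the macrophage mannose receptor Mrc1 bind mannose-type sugars. Clec7a (Dectin-1, a receptor for fungal β-glucan) and Clec9a (a receptor for actin exposed on dead cells) carry their own tyrosine motif for the kinase Syk, while Clec4n (Dectin-2), Clec4d and Clec4e (Mincle) reach Syk through the adaptor chain Fcer1g. Syk in turn engages Card9, Bcl10 and Malt1, which lead to canonical NF-κB. Clec12a is an inhibitory receptor. IL-4 is known to raise Mrc1, Mgl2, Clec10a and Cd209a in mouse myeloid cells, and all cultures here had received it.

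Levels are given as CPM, counts relative to a library's size after TMM scaling, always in the order of replicates 1, 2 and 3. Nfkb2 itself was at 215, 154 and 355 CPM in WT and at 44.8, 32.3 and 32.6 CPM in Nfkb2-/- BMDCs. The groups did not overlap, and the fitted log2 fold change, Nfkb2-/- over WT, was -2.72 ± 0.33 (SE) with an adjusted p of 0.0307 by edgeR. Nfkb2 reads were thus fewer but not absent in the knockout libraries, and their source was not tested. Depth ranged from 29863927 to 55623068 counts per library. In 2 libraries the profile stood apart from the rest. Nfkb2-/- replicate 1 had at least 1 count at 47952 gene IDs, against 27692 to 33841 in the other 5 libraries. WT replicate 3 stood apart in the receptors themselves, as follows.

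The 10 receptors were most variable among the WT libraries. Every one of them was lowest in WT replicate 3, which was the lowest library for 25% of all genes tested. A receptor's level in WT replicate 3 was between 0.0764 and 0.581 of its mean in WT replicates 1 and 2, with a median of 0.179, where the median over all tested genes was 0.971. The highest WT library exceeded the lowest by a median of 6.97-fold over the receptors and by 1.77-fold among the Nfkb2-/- libraries, against 1.45-fold and 1.36-fold over 15316 genes that averaged 1 CPM or more. The range was wider in WT for 9 of 10 receptors, Clec9a being the exception. Summed over the 10 receptors the level was 1210, 1555 and 355 CPM in WT and 1573, 2308 and 2356 CPM in Nfkb2-/- BMDCs. The knockout libraries thus all lay above the highest WT library, Nfkb2-/- replicate 1 by a small margin. Without TMM scaling that margin was wider, with 1618 CPM in WT replicate 2 and 1826 CPM in Nfkb2-/- replicate 1.

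**Figure D1:**
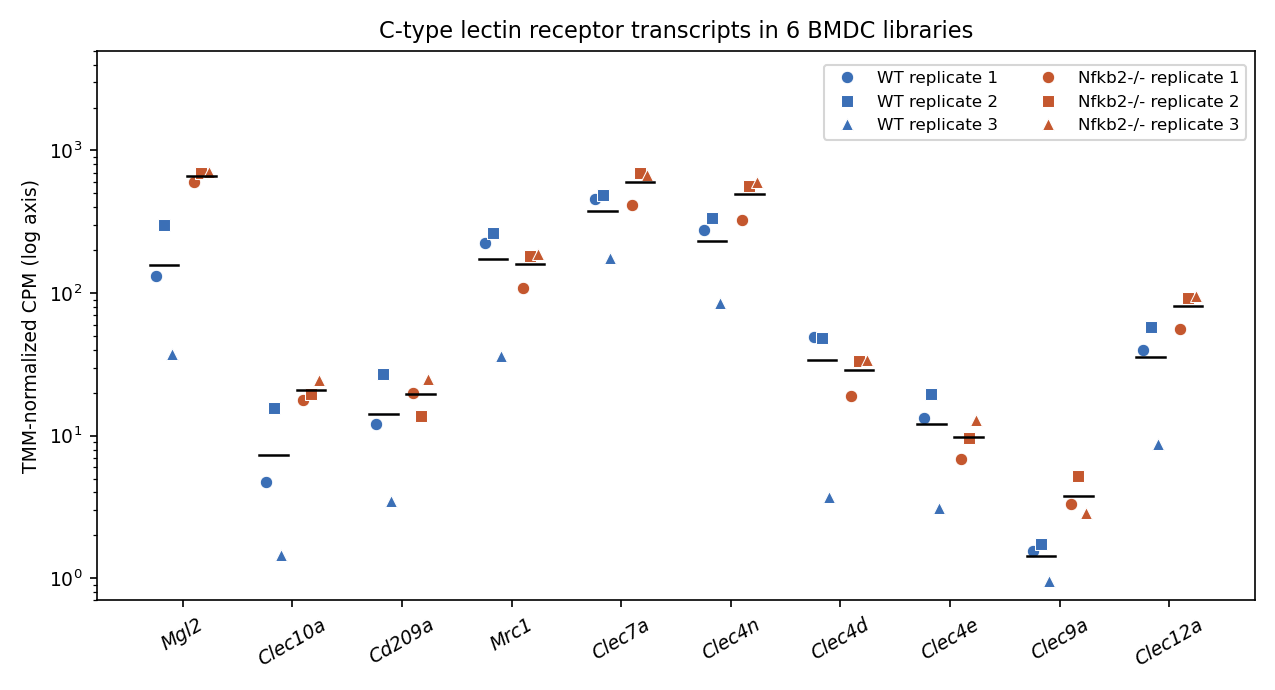
Level of each receptor in each library, in TMM-normalized CPM on a log axis, with WT in blue, Nfkb2-/- in orange, 1 symbol per replicate and a black line at the group mean. WT replicate 3 (blue triangles) is lowest for all 10 receptors, and the groups are apart only for Mgl2, Clec10a and Clec9a.

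WT replicate 3 was also low in macrophage and monocyte markers and high in markers of mature dendritic cells. The 14 tested of 15 macrophage and monocyte markers were all lowest in that library, and they summed to 4769, 5284 and 503 CPM in WT and to 2336, 3434 and 3492 CPM in Nfkb2-/- BMDCs. Lyz2, the lysozyme gene and the most abundant of them, was at 3436, 3407 and 267 CPM in WT and at 1234, 2061 and 1867 CPM in Nfkb2-/- BMDCs. Of the 10 mature dendritic cell markers, 8 were highest in WT replicate 3, and they summed to 6417, 4683 and 9686 CPM in WT and to 4268, 4455 and 4375 CPM in Nfkb2-/- BMDCs. Ccr7, the chemokine receptor that leads dendritic cells to lymph nodes, was the most abundant of these by TPM. Vsig4 was the macrophage marker that did not reach the count minimum. In bulk RNA, fewer cells of a type and less RNA per cell cannot be told apart, and the part of these markers in the receptor levels was not tested.

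**Figure D2:**
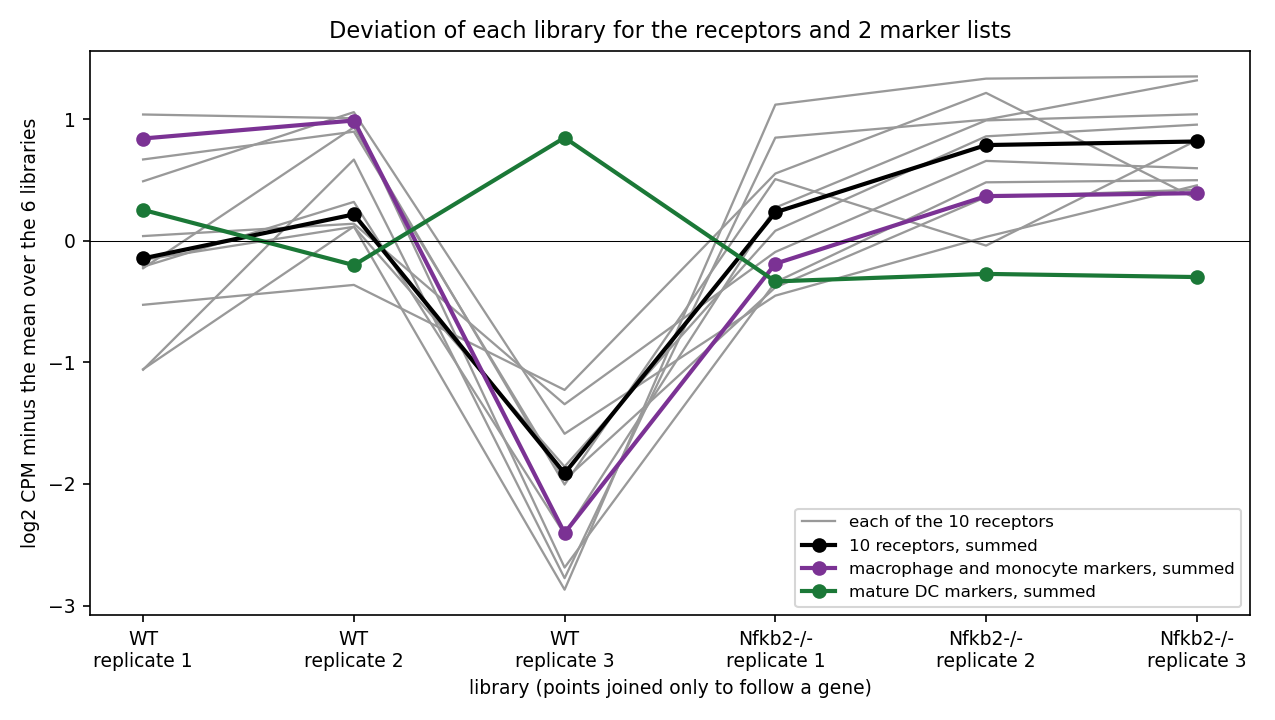
Log2 CPM in each library minus the mean over the 6 libraries, for each receptor (grey), for the sum of the 10 receptors (black) and for the sums of macrophage and monocyte markers (purple) and mature dendritic cell markers (green). The receptors and the macrophage markers share their lowest point in WT replicate 3, where the mature dendritic cell markers are highest, and the macrophage markers are highest in WT replicates 1 and 2 while the summed receptors are highest in Nfkb2-/- replicates 2 and 3.

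None of the 10 receptors was called between the genotypes by edgeR, where a call needs an adjusted p under 0.05 and a fold change over 1.2. Among all genes tested 1.14% were called, 0.453% higher and 0.682% lower in Nfkb2-/- BMDCs. At an unadjusted p under 0.05 stood 2 of 10, Mgl2 and Clec9a, close to the 17.1% of all genes. DESeq2 called these same 2 receptors, against 8.65% of all genes, and limma voom called 0. Without WT replicate 2 edgeR called 2 of 10, Mgl2 and Clec10a, against 5.87% of all genes. With a minimum of 1 count in place of 50 it called 5 of 10, Mgl2, Clec10a, Clec9a, Clec12a and Clec4n, against 3.5% of 46410 genes. That filter moved adjusted p in both directions by edgeR, for Mgl2 from 0.162 to 9.19e-07 and for Syk from 0.0666 to 0.357. The log2 fold change of Mgl2 stayed close, at 2.03 against 2.09. The low ends of the ranges given below for Mgl2, Clec10a, Clec4n and Clec12a come from that fit. The receptors' median log2 fold change was 0.88, with 7 above 0 and 3 below, and the median over all tested genes was 0.08. The 3 below 0, Clec4d, Clec4e and Mrc1, were above 0 with limma voom. In 3 of 10 receptors all knockout values exceeded all WT values, against 12.7% of all genes, and in 0 of 10 all were below, against 12% of all genes. Clec4n and Clec12a overlapped only between WT replicate 2 and Nfkb2-/- replicate 1, whose TMM factors were 1.041 and 1.161. On unscaled library sizes both would be apart, and the share of all genes was not computed there. Leaving out WT replicate 1 or any 1 of the Nfkb2-/- libraries left 0 genes called by edgeR in the whole table, Nfkb2 included, with 2325 to 4088 genes at an unadjusted p under 0.05, and every call of the full edgeR fit named below is lost in those 4 fits. A receptor that misses the threshold is not shown to be equal in the genotypes.

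Mgl2, a receptor for terminal galactose and N-acetylgalactosamine, differed most in size. It was at 132, 299 and 37.7 CPM in WT and at 599, 694 and 703 CPM in Nfkb2-/- BMDCs. The knockout libraries lay close together and all above the highest WT library. The log2 fold change was 2.09 ± 0.64 (SE), about 4.26-fold, with an adjusted p of 0.162 by edgeR. DESeq2 gave 2.08 with an adjusted p of 0.00556, and over the 14 alternatives the adjusted p ran from 9.19e-07 to 0.444. Without WT replicate 3 the value was 1.63 (adjusted p = 0.0896, edgeR), and without WT replicate 2 it was 2.97 and called (adjusted p = 0.0351, edgeR). Without Nfkb2-/- replicate 1 the log2 fold changes of Mgl2, Clec10a and Clec9a were 2.15, 1.60 and 1.48, none of them called by edgeR.

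Clec10a, the paralog of Mgl2, lay 18647 bases downstream on the same strand. The annotation places Mgl2 at chr11:70130329-70137550 and Clec10a at chr11:70156197-70170834 of GRCm38, both protein-coding genes. Clec10a was far less abundant, at 4.74, 15.7 and 1.45 CPM in WT and at 17.8, 19.7 and 24.7 CPM in Nfkb2-/- BMDCs. Its groups did not overlap, though WT replicate 2 came near the lowest knockout library. The log2 fold change was 1.51 ± 0.72 (SE) with an adjusted p of 0.347 by edgeR. Without WT replicate 2 it was 2.73 and called (adjusted p = 0.0360, edgeR). The fit without WT replicate 3 gave 1.03, not called (adjusted p = 0.362, edgeR). Over the alternatives the adjusted p of Clec10a ran from 3.74e-05 to 0.631. Asgr2, a galactose-binding neighbour upstream of Mgl2 and one of the 25 other receptors tested, was at 25.5, 74.8 and 6.99 CPM in WT and at 105, 132 and 174 CPM in Nfkb2-/- BMDCs, with a log2 fold change of 1.94 ± 0.73 (SE) that was not called (adjusted p = 0.236, edgeR). DESeq2 called Asgr2 (adjusted p = 0.0312), as did edgeR without WT replicate 2 (3.07, adjusted p = 0.0385). Leaving out WT replicate 3 gave 1.46, not called (adjusted p = 0.198, edgeR). The adjusted p of Asgr2 ranged from 3.31e-08 to 0.536 over the alternatives. Mgl2, Clec10a and Asgr2 thus had groups that did not overlap, each with WT replicate 3 lowest.

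Mgl2 and Clec10a share sequence, so their reads are partly uncertain. Of the 50-base windows in the transcripts of Clec10a, 9.02% also occurred in another gene, 270 of 287 such windows in Mgl2, and for Mgl2 the share was 13.1%. Per length, Mgl2 made up 97.5%, 96.3% and 97.3% of the 2 genes' summed level in WT and 97.9%, 98.0% and 97.5% in Nfkb2-/- BMDCs. The means were 97.0% ± 0.613 and 97.8% ± 0.244 (SD, n = 3), and the two-sided exact permutation test gave p = 0.1, the smallest that 3 against 3 allows. As a ratio per length, Mgl2 was 38.6, 26.3 and 36.1 times Clec10a in WT and 46.5, 48.7 and 39.4 times in Nfkb2-/- BMDCs, so the groups did not overlap on either scale, by a small margin between WT replicate 1 and Nfkb2-/- replicate 3. Without WT replicate 2 the difference in share was 0.412 percentage points, against 0.762 with it.

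The bases before the starts of Mgl2 and Mrc1 are shown because Mgl2 had the largest and Mrc1 the smallest fitted difference in absolute size, and because their windows are the ones that hold letters of both an NF-κB and a PU.1 motif. They were read from RefSeq promoter entries (GRCm38.p6, + strand), which 8 of the 10 receptors have, and end at the base before the start in the GENCODE annotation, 28 and 22 bases ahead of the RefSeq start. The Mgl2 stretch is chr11:70130107-70130328 and the Mrc1 stretch chr2:14229164-14229391, with motif matches in capitals.
Mgl2: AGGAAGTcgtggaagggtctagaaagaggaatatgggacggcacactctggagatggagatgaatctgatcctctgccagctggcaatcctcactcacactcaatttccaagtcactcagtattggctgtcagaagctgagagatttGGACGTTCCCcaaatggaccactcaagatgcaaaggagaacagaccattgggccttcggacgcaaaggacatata
Mrc1: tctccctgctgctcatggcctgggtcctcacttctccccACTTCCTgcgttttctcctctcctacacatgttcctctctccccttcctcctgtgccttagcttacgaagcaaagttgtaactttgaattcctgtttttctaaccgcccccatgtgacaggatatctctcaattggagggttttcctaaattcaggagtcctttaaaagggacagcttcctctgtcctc

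On either strand of the 250 bases before the RefSeq start, the κB letters GGGNNNNNCC occurred in 45.4% of 27025 RefSeq promoters and in 2 of the 8 receptors, Mgl2 and Mrc1. In Mgl2 a match on the - strand, GGACGTTCCC, began 103 bases before the RefSeq start, and a second, GGCCCCTCCC, began 14 bases before it, beyond the printed stretch. In Mrc1 the match GGCAGCTCCC began 11 bases before the start, also beyond it. The PU.1 letters AGGAAGT occurred in 7.8% of promoters and in the same 2 receptors, on the + strand 250 bases before the start of Mgl2 and on the - strand 211 bases before that of Mrc1. The STAT6 letters TTCNNNNGAA occurred in 5.86% of promoters and, among the receptors, in Clec7a. Of these 2 receptors Mgl2 had groups apart, and Mrc1 had groups that overlapped through WT replicate 3. Whether the matches have a part in either level was not tested.

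The mannose-binding receptors had overlapping groups. Mrc1 (chr2:14229392-14332057) was at 224, 262 and 36.0 CPM in WT and at 108, 181 and 189 CPM in Nfkb2-/- BMDCs. Its log2 fold change was -0.13 ± 0.63 (SE), with an adjusted p of 0.937 by edgeR. WT replicates 1 and 2 were both above all 3 knockout libraries, and WT replicate 3 was below them. Cd209a, the mouse DC-SIGN-like gene at chr8:3743397-3748984, was at 12.1, 26.9 and 3.51 CPM in WT and at 20.0, 13.7 and 24.99 CPM in Nfkb2-/- BMDCs. WT replicate 2 was its highest library, and the log2 fold change was 0.47 ± 0.63 (SE, adjusted p = 0.742, edgeR). The fit that left out WT replicate 2 gave 1.32 and the one that left out WT replicate 3 gave 0.015, neither of them called by edgeR.

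The 3 receptors that pair with Fcer1g lie side by side within 60.0 kb of chromosome 6, yet their values did not run alike. Clec4n (chr6:123229843-123247021), which binds fungal mannans, was at 276, 334 and 85.1 CPM in WT and at 326, 559 and 598 CPM in Nfkb2-/- BMDCs. Its groups overlapped by the small gap between WT replicate 2 and Nfkb2-/- replicate 1, and its log2 fold change was 1.09 ± 0.49 (SE, adjusted p = 0.314, edgeR). The fits that left out WT replicate 3 and WT replicate 2 gave Clec4n log2 fold changes of 0.70 and 1.45, neither called, and it was called in the fit with a minimum of 1 count (adjusted p = 0.0486, edgeR), with a range of 0.0486 to 0.511 over the alternatives. Clec4d (chr6:123262111-123275265), the partner of Clec4e, was at 49.2, 48.1 and 3.72 CPM in WT and at 18.9, 33.4 and 33.8 CPM in Nfkb2-/- BMDCs. Clec4e (chr6:123281789-123289870), which binds mycobacterial cord factor, was at 13.2, 19.6 and 3.13 CPM in WT and at 6.88, 9.62 and 12.9 CPM in Nfkb2-/- BMDCs. For both, WT replicates 1 and 2 were above all knockout libraries and WT replicate 3 below all of them. Their log2 fold changes were -0.23 ± 0.77 and -0.29 ± 0.58 (SE), with adjusted p of 0.905 and 0.837 by edgeR.

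A further run of receptors lies 6.05 Mb away on chromosome 6, where Clec12a, Clec9a and Clec7a fall within 130.1 kb. Clec7a (chr6:129461591-129472779, listed as a polymorphic pseudogene in the annotation) was at 456, 489 and 175 CPM in WT and at 417, 700 and 671 CPM in Nfkb2-/- BMDCs. Its groups overlapped, and the log2 fold change was 0.67 ± 0.40 (SE, adjusted p = 0.444, edgeR). Leaving out WT replicate 3 gave Clec7a a log2 fold change of 0.34 and leaving out WT replicate 2 one of 0.92, neither called. Clec12a (chr6:129342691-129365303), which dampens activating signals, was at 40.0, 57.9 and 8.71 CPM in WT and at 56.04, 92.2 and 95.4 CPM in Nfkb2-/- BMDCs. WT replicate 2 lay just above Nfkb2-/- replicate 1, and the log2 fold change was 1.19 ± 0.60 (SE, adjusted p = 0.371, edgeR). Its log2 fold change was 0.74 with WT replicate 3 left out and 1.73 with WT replicate 2 left out, neither called, and Clec12a was called in the fit with a minimum of 1 count (adjusted p = 0.00236, edgeR), with a range of 0.00236 to 0.580 over the alternatives.

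Clec9a (chr6:129408862-129424763), a marker of cross-presenting dendritic cells, was the scarcest receptor and the least spread in WT. It was at 1.57, 1.75 and 0.964 CPM in WT, from 66, 57 and 28 counts, and at 3.31, 5.24 and 2.86 CPM in Nfkb2-/- BMDCs, from 112, 159 and 153 counts. The groups did not overlap, and the log2 fold change was 1.40 ± 0.35 (SE), about 2.65-fold. It was not called by edgeR (adjusted p = 0.113) and was called by DESeq2 (adjusted p = 0.0157), within a range of 0.0157 to 0.375 over the alternatives. The gene overlaps the end of Clec1b (chr6:129397297-129409335) on the same strand, and 4.02% of its 50-base windows also occurred there, so reads in the overlap cannot be assigned to either gene with certainty. Xcr1, the defining receptor of the same dendritic cell subset, was nearly absent, at 0, 0.308 and 0.172 CPM in WT and at 0.620, 0.132 and 0.262 CPM in Nfkb2-/- BMDCs, and was chosen for mention as the defining marker and not by the naming rule. The 8 markers listed for that subset, Xcr1 among them, were not scarce as a sum. They reached 503, 441 and 599 CPM in WT and 697, 650 and 690 CPM in Nfkb2-/- BMDCs.

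Without WT replicate 3, a comparison added after the values were seen, 3 receptors were higher and 3 were lower in every Nfkb2-/- library than in WT replicates 1 and 2. Higher were Mgl2, Clec10a and Clec9a, against 17.6% of all genes, and lower were Clec4d, Clec4e and Mrc1, against 17.2% of all genes. The fitted log2 fold changes of the latter were then -0.76, -0.73 and -0.61, with adjusted p of 0.234, 0.303 and 0.323 by edgeR, and 0 of 10 receptors were called in that fit, against 1.27% of all genes. The same 7 receptors had log2 fold changes above 0 and the same 3 below it as with all 6 libraries.

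**Figure D3:**
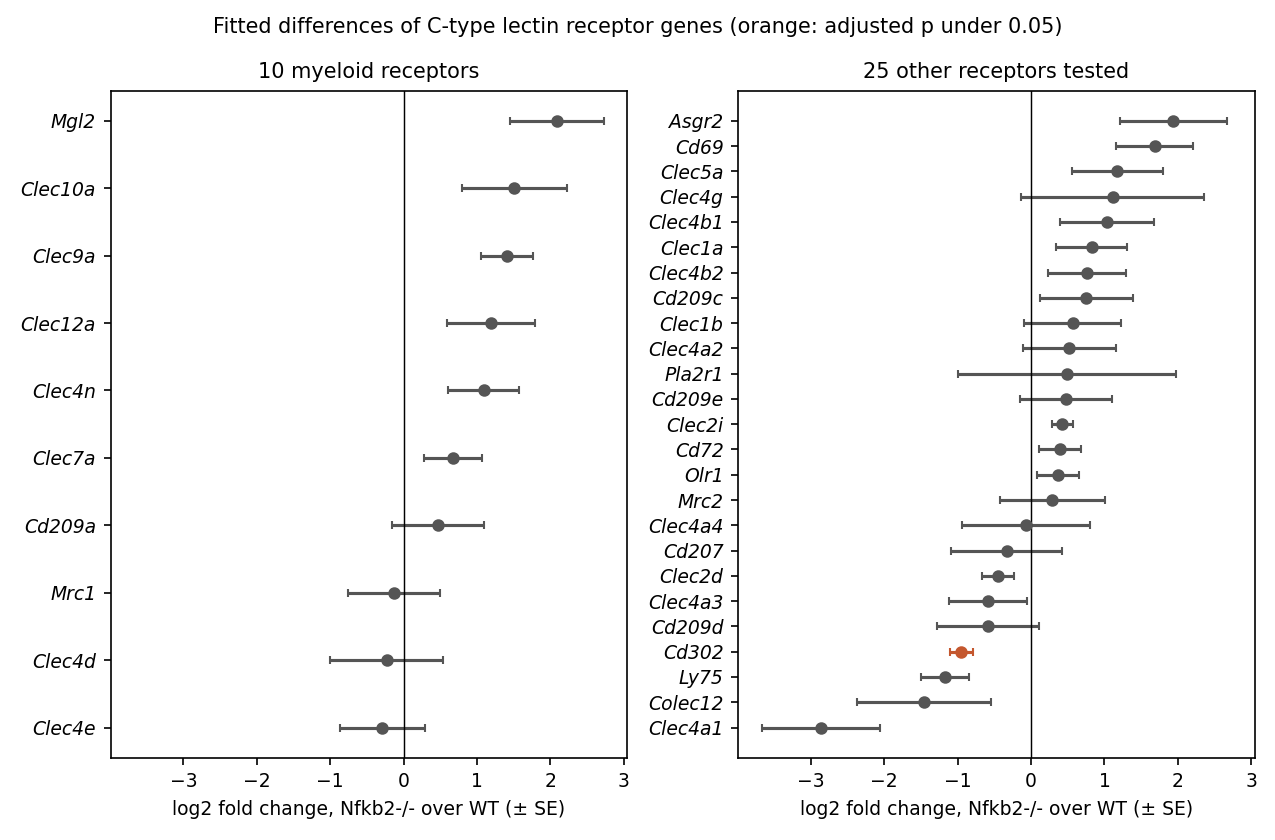
Log2 fold change, Nfkb2-/- over WT, with its standard error by edgeR, for the 10 receptors (left) and for the 25 other C-type lectin receptors tested (right), with called genes in orange. Cd302 at -0.95 is the called gene of the 35, and Mgl2 at 2.09 has the largest value among the 10.

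Compared per length as TPM, which divides counts by exonic length and scales them to the library's sum of such values, the order of the receptors differed between genotypes. Clec4n or Clec7a stood first in the WT libraries, with Mgl2 always in the next place after both, whereas Mgl2 ranked above Clec7a in all 3 Nfkb2-/- libraries and above Clec4n in replicate 1. Mean levels in WT were 577 TPM ± 360 for Clec4n, 497 ± 264 for Clec7a and 268 ± 242 for Mgl2 (SD, n = 3), which did not differ beyond their spread. In Nfkb2-/- BMDCs they were 1163 ± 281 for Clec4n, 1072 ± 22.0 for Mgl2 and 756 ± 154 for Clec7a. Mrc1 came next in every library, with 97.6 TPM ± 71.6 in WT and 83.5 ± 18.6 in Nfkb2-/- BMDCs, and Clec9a was last in every library, with 1.503 ± 0.574 and 3.89 ± 1.18.

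The share of each receptor in the summed TPM of the 10 is taken within a library, so that a common rise or fall of the family drops out. Mgl2 made up 12.2%, 21.2% and 11.4% of the sum in WT and 39.0%, 30.8% and 30.3% in Nfkb2-/- BMDCs. The groups did not overlap, and WT replicate 3 was here close to WT replicate 1. Clec7a was at 33.5%, 27.6% and 42.1% in WT and at 21.5%, 24.7% and 23.0% in Nfkb2-/- BMDCs, lower in each knockout library. Mrc1 was at 6.81%, 6.13% and 3.59% in WT and at 2.31%, 2.64% and 2.67% in Nfkb2-/- BMDCs. Clec4e was at 0.515%, 0.587% and 0.401% in WT and at 0.189%, 0.180% and 0.235% in the knockout. All 4 of these receptors had groups apart in share and the other 6 overlapped. Shares of 1 sum depend on each other, and the 3 against 3 libraries cannot give an exact permutation p below 0.1, so no call rests on them.

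With Mgl2 left out of the sum, a variant added after the values were seen, Mrc1 and Clec4e were again lower in every knockout library, while Clec7a overlapped. Mrc1 was then at 7.76%, 7.78% and 4.06% in WT and at 3.78%, 3.81% and 3.84% in Nfkb2-/- BMDCs. Clec4n was then higher in share, at 43.0%, 44.4% and 43.0% in WT and at 51.3%, 52.9% and 54.6% in Nfkb2-/- BMDCs. Clec12a was also higher, at 1.60%, 1.98% and 1.13% against 2.26%, 2.24% and 2.24%. In the sum of all 10 the Clec4n share overlapped, at 37.7%, 35.0% and 38.1% in WT and at 31.3%, 36.6% and 38.0% in Nfkb2-/- BMDCs, so its difference depends on leaving Mgl2 out.

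**Figure D4:**
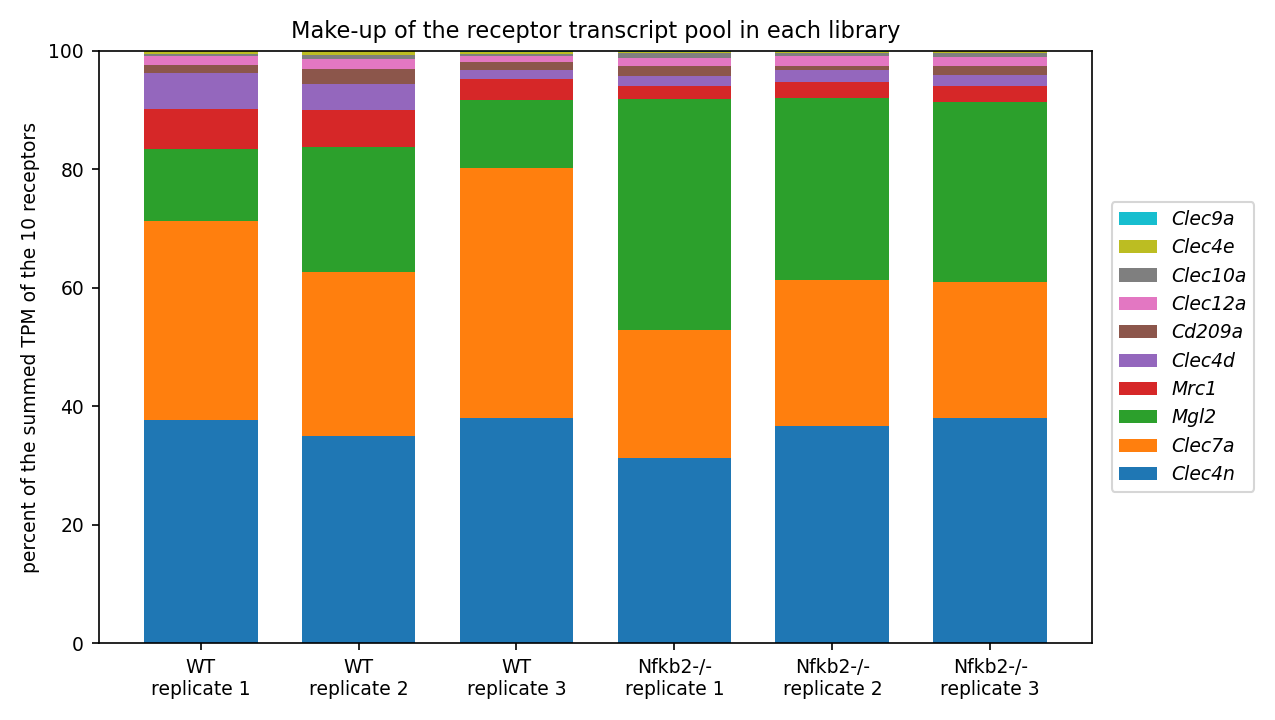
Percent of the summed TPM of the 10 receptors that each receptor contributes, stacked to 100% for each of the 6 libraries. Mgl2 (green) spans 11.4% to 21.2% in WT and 30.3% to 39.0% in Nfkb2-/- BMDCs, and Clec7a (light orange) spans 27.6% to 42.1% and 21.5% to 24.7%.

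Of 31 other C-type lectin receptor genes 25 could be tested, and 1 was called, Cd302, which was lower. Cd302, a receptor of phagocytes with a role in adhesion, was at 36.2, 40.7 and 49.1 CPM in WT and at 22.3, 20.8 and 22.2 CPM in Nfkb2-/- BMDCs, a log2 fold change of -0.95 ± 0.16 (SE, adjusted p = 0.0491, edgeR). The call was lost with RLE or total-count scaling and without WT replicate 3 (log2 fold change -0.82, adjusted p = 0.0549, edgeR), with a range of 3.52e-05 to 0.246 over the alternatives, and Clec4a1 was the gene of the list called in the fit without that library. Its neighbour Ly75 (DEC-205), an endocytic receptor of mature dendritic cells and the gene of the list with the highest TPM averaged over the 6 libraries, was at 1009.7, 634 and 1632 CPM in WT and at 469, 527 and 457 CPM in Nfkb2-/- BMDCs. WT replicate 3 was its highest library, the reverse of the 10 receptors. Ly75 was not called (log2 fold change -1.17 ± 0.33 SE, adjusted p = 0.139, edgeR). DESeq2 called it (adjusted p = 0.00957, the lowest of a range up to 0.365 over the alternatives), as did edgeR without WT replicate 2. The fit without WT replicate 3 gave Ly75 -0.76, not called (adjusted p = 0.172, edgeR). Clec2d, a ligand of an NK cell receptor, was above Ly75 in TPM in all 3 Nfkb2-/- libraries and had a log2 fold change of -0.45 (adjusted p = 0.360, edgeR). The median log2 fold change of the 25 was 0.42, with 16 above 0 and 9 below, and 11 of them were lowest in WT replicate 3. An unadjusted p under 0.05 by edgeR was reached by 6 of 25, against 17.1% of all genes.

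Downstream of the receptors, 1 of 24 adaptor, kinase and phosphatase genes was called. Ubash3b (Sts-1), a phosphatase that restrains Syk, was at 190, 179 and 192 CPM in WT and at 72.8, 84.1 and 75.4 CPM in Nfkb2-/- BMDCs. It fell by 1.27 ± 0.14 (SE) on the log2 scale (adjusted p = 0.0271, edgeR). Syk was at 663, 673 and 671 CPM in WT and at 408, 427 and 399 CPM in Nfkb2-/- BMDCs, tight and apart in both groups, with a log2 fold change of -0.70 ± 0.14 (SE) that missed the threshold by edgeR (adjusted p = 0.0666). DESeq2 (adjusted p = 1.64e-07) and limma voom (adjusted p = 0.0435) called Syk, and the range over the alternatives was 1.64e-07 to 0.357. Unlike the receptors, Syk and Ubash3b were level across the WT libraries, WT replicate 3 included. The adaptor chains Fcer1g and Tyrobp were not called, at log2 fold changes of 0.40 and -0.20 (adjusted p = 0.604 and 0.566, edgeR), and Fcer1g was lowest in WT replicate 3, at 119 CPM against 279 and 331 CPM in the other WT libraries. The median of the list was 0.06, and 8 of 24 stood at an unadjusted p under 0.05 by edgeR, against 17.1% of all genes.

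Of the 9 genes of the Card9 complex, Prkcd was called. Prkcd, the protein kinase C isoform that phosphorylates Card9 below these receptors, was at 202, 313 and 292 CPM in WT and at 699, 691 and 619 CPM in Nfkb2-/- BMDCs. It rose by 1.32 ± 0.20 (SE) on the log2 scale (adjusted p = 0.0420, edgeR), and without WT replicate 3 it was 1.38 with an adjusted p of 0.0512 by edgeR, a difference as large that missed the threshold. Malt1 and Traf6, the other abundant genes of the list, were not called, at 0.16 and -0.49 (adjusted p = 0.769 and 0.161, edgeR), and DESeq2 called Traf6 (adjusted p = 0.0147, the lowest of a range up to 0.635 over the alternatives). None of these 9 genes was lowest in WT replicate 3, and their median was -0.10, with 3 above 0 and 6 below. At an unadjusted p under 0.05 by edgeR stood 5 of 9, against 17.1% of all genes. All knockout values were below WT for 4 of 9, against 12% of all genes, and above WT for 1, against 12.7%. DESeq2 called 4 of the 9, against 8.65% of all genes. Of 15 tested genes that Syk and Card9 are known to induce, 0 were called by edgeR. At an unadjusted p under 0.05 stood 1 of them, Tnf, against 17.1% of all genes. DESeq2 called Tnf as well, against 8.65% of all genes. The most abundant of these, Ccl3, Egr2 and Nlrp3, had overlapping groups and log2 fold changes of 0.72, 1.09 and 0.77. These were 2.14, 2.34 and 1.97 without WT replicate 2, where Egr2 was called (adjusted p = 0.0472 by edgeR, 0.0163 to 0.736 over the alternatives), and 0.18, 0.61 and 0.27 without WT replicate 3. Tnf was at 7.14, 13.0 and 2.13 CPM in WT and at 28.1, 26.9 and 28.7 CPM in Nfkb2-/- BMDCs, with groups apart. Its log2 fold change was 1.91 ± 0.55 (SE, adjusted p = 0.143, edgeR). Tnf was called without WT replicate 2 (2.57, adjusted p = 0.0395, edgeR) and not without WT replicate 3 (1.48, adjusted p = 0.0618, edgeR). The median of the list was 0.54, with 11 of 15 lowest in WT replicate 3.

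Genes that IL-4 induces in myeloid cells gave a further frame, since Mgl2, Clec10a, Cd209a and Mrc1 are among the receptors it raises. Of 21 such genes 1 was called, Ccl17, a chemokine for T cells that express Ccr4. Ccl17 was at 161, 361 and 432 CPM in WT and at 2385, 2472 and 2357 CPM in Nfkb2-/- BMDCs, and it rose by 2.92 ± 0.37 (SE) on the log2 scale (adjusted p = 0.0307, edgeR). It was not lowest in WT replicate 3. Ccl22 and Chil3, the other most abundant genes of the list, were not called, at -0.50 and 1.44 (adjusted p = 0.404 and 0.0879, edgeR), and DESeq2 called Chil3 (adjusted p = 0.000405, the lowest of a range up to 0.324 over the alternatives). The median of the 21 was 0.37, with 18 above 0 and 3 below. At an unadjusted p under 0.05 by edgeR stood 6 of 21, against 17.1% of all genes. All knockout values were above WT for 7 of 21, against 12.7% of all genes, and below WT for 2, against 12%. DESeq2 called 5 of the list, against 8.65% of all genes, and limma voom called 3.

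Markers of the cell types that such cultures can hold were as follows. Among 9 dendritic cell markers Itgax, which encodes CD11c, was called and rose by 1.99 ± 0.30 (SE) on the log2 scale (adjusted p = 0.0414, edgeR), from 160, 277 and 123 CPM to 745, 769 and 716 CPM. The other 8 were not called by edgeR, and the list had 5 log2 fold changes above 0 and 4 below, with a median of 0.12. All knockout values were above WT for 3 of the 9, Itgax, Dpp4 and Ciita, against 12.7% of all genes. They were below WT for 1 of the 9, Zbtb46, against 12% of all genes. The log2 fold changes were 0.81 for Dpp4, 0.50 for Ciita and -0.54 for Zbtb46 (adjusted p = 0.135, 0.254 and 0.192, edgeR). DESeq2 called 2 of the 9, Itgax and Dpp4, against 8.65% of all genes. Cd74, the invariant chain and the most abundant of them, was at 2453, 1870.0 and 3691 CPM in WT and at 2905, 2748 and 3036 CPM in Nfkb2-/- BMDCs. No gene was called by edgeR among 8 markers of type 1 and 5 of type 2 conventional dendritic cells, 10 of mature dendritic cells, 14 of macrophages and monocytes, 11 of neutrophils, 5 of plasmacytoid dendritic cells, 3 of B cells, 2 of T and NK cells and 5 of stroma. At an unadjusted p under 0.05 stood 3 of the type 1, 1 of the type 2, 7 of the mature dendritic cell and 4 of the neutrophil markers, and 0 of the other lists. The share of all genes was 17.1%. In that order the median log2 fold changes of these 4 lists were 0.31, 0.14, -0.76 and -0.78. Below 0 were 3 of 8, 2 of 5, 8 of 10 and 9 of 11 genes. DESeq2 called 3, 1, 3 and 3 genes of these 4 lists in that order, against 8.65% of all genes. It called 0 of the macrophage and monocyte, plasmacytoid, B cell, T and NK cell and stroma markers, and limma voom called 1 gene in all of these lists, Itgae among the type 1 markers. The gene of each with the highest TPM averaged over the 6 libraries was Wdfy4, Irf4, Ccr7, Lyz2, S100a8, Bst2, Cd79a, Cd3e and Col1a1, in the order given above, and Kit among the mast cell and basophil markers. Wdfy4, which dendritic cells need for cross-presentation, was at 91.4, 231 and 25.5 CPM in WT and at 557, 533 and 546 CPM in Nfkb2-/- BMDCs, a log2 fold change of 2.23 ± 0.68 (SE, adjusted p = 0.160, edgeR), with WT replicate 3 again lowest. Irf8, a transcription factor of the same subset, ran the other way, at 379, 173 and 540.3 CPM in WT and at 93.3, 84.0 and 107 CPM in Nfkb2-/- BMDCs, a log2 fold change of -1.94 ± 0.39 (SE, adjusted p = 0.0660, edgeR), with WT replicate 3 highest. DESeq2 called both (adjusted p = 0.00429 and 3.58e-05), as did edgeR without WT replicate 2 (3.22 and -2.28, adjusted p = 0.0297 and 0.00707). Without WT replicate 3 neither Wdfy4 nor Irf8 was called (1.76 and -1.54, adjusted p = 0.0913 and 0.0845, edgeR). The adjusted p over the alternatives ran from 4.98e-08 to 0.444 for Wdfy4 and from 1.11e-07 to 0.271 for Irf8. Of 7 mast cell and basophil markers Cpa3 was called, and it fell by 1.84 ± 0.28 (SE) on the log2 scale (adjusted p = 0.0413, edgeR). DESeq2 called Cpa3 and also Gata2, which had a log2 fold change of 1.47 (adjusted p = 0.119, edgeR). Neutrophil markers summed to 286, 440 and 109 CPM in WT and to 153, 166 and 189 CPM in Nfkb2-/- BMDCs. B cell and T and NK cell markers each summed to under 5 CPM in every library, and 0 of 5 erythroid markers could be tested.

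For each receptor that averaged 10 CPM or more, the genes most alike in log2 CPM over the 6 libraries were sought among 8594 genes at that level, as a description. Mgl2 was most alike to Rpn1 and Plbd1 (Pearson r = 0.999 for both) and Clec10a to Nfatc2 and Ccnf (r = 0.999 for both). Clec4d and Mrc1 had the same nearest genes, Soat1 and Slc23a2, at r of 0.999 for Clec4d and 0.995 for Mrc1. Clec4n was most alike to Cd200r1 and Il1rap (r = 0.998 for both), Clec4e to Rgs2 (r = 0.997) and Tlr2 (r = 0.994), and Clec7a to Nudt19 (r = 0.995) and Exoc6 (r = 0.993). Clec12a was nearest to Arhgap6 and Atp8b4 (r = 0.999 for both) and Cd209a to Ubp1 (r = 0.996) and Rubcnl (r = 0.992). All 10 receptors share their lowest library, and the best of so many genes over 6 libraries are high by selection. None of these 16 genes was called between the genotypes by edgeR.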

How the data were processed

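RNA-seq was done on BMDCs from WT and global Nfkb2-/- mice, 3 libraries each. The deposited files hold raw read counts per Ensembl gene, which the authors made from aligned reads. The submitters' processing notes name HISAT2 and the builds GRCm38 and mm10, while the counting program, its annotation and its strand setting are not given in the sources used here. The joined table of the same counts was not used. Names, lengths and coordinates came from GENCODE M21 (GRCm38), which held 52073 of 56748 IDs, and IDs without a name took 1.01% to 1.75% of a library's counts.

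Genes with a name and at least 50 counts summed over the 6 libraries were kept, a rule taken from the study's methods but applied to M21 names, so that the set is not the study's own, and fitted together with edgeR 4.0.16 (TMM, quasi-likelihood test, Benjamini-Hochberg adjustment) in R 4.3.3. DESeq2 1.42.0, which the study used, limma voom 3.58.1, other scalings and filters, a replicate block and the omission of each library in turn were alternatives. No covariate was used. CPM compares libraries, and TPM, computed from exonic lengths, compares genes. At these depths 1 count was worth 0.0180 to 0.0335 CPM before TMM scaling. No molecular identifiers are named in the sources used here, so counts are taken as reads and not molecules.

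The receptors and the gene lists were chosen with earlier results of these data known, so no p-value was adjusted over a list and no list was tested as a set. Named are the 10 receptors, Nfkb2, every called gene of the other lists with the 3 most abundant by TPM averaged over the 6 libraries (1 for a marker list), and for each receptor that averaged 10 CPM or more its 2 most alike genes. Tnf, Clec1b, Clec4a1, Irf8, Itgae, Gata2, Dpp4, Ciita, Zbtb46, Xcr1 and Vsig4 fall outside this rule and were named after their values were seen. The fits were also run on simulated counts, in which no library stood apart as WT replicate 3 and Nfkb2-/- replicate 1 did here. That run therefore cannot show how the fits behave with such libraries.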

Additional observations from a re-analysis of the deposited data

How the results depend on the processing

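The number of genes called by edgeR, 248 of 21849, was 1890 with DESeq2, 488 with limma voom, 397 with filterByExpr, 1625 of 46410 with a minimum of 1 count, 459 with at least 10 counts in every library, 808 at an adjusted p under 0.1, and between 0 and 1248 when 1 library was left out, the highest without WT replicate 2. Called receptors numbered 0 by edgeR, 2 with DESeq2, 5 with a minimum of 1 count (Mgl2, Clec10a, Clec9a, Clec12a and Clec4n) and 0 to 2 with 1 library left out. Of the other C-type lectin receptors 1 was called, and 5 with DESeq2, 0 with RLE or total-count scaling or a fold over 2, 8 with a minimum of 1 count and 0 to 4 with 1 library left out. Of adaptors, kinases and phosphatases 1 was called, and 6 with DESeq2, 2 with limma voom, a minimum of 1 count, 10 counts in every library or an adjusted p under 0.1, and 0 to 4 with 1 library left out. Of the Card9 complex 1 was called, and 4 with DESeq2, 2 with a minimum of 1 count and 0 to 2 with 1 library left out. Of genes induced through Syk and Card9 0 were called, and 1 with DESeq2, 3 with a minimum of 1 count and 0 to 2 with 1 library left out. Of IL-4-induced genes 1 was called, and 5 with DESeq2 or an adjusted p under 0.1, 3 with limma voom, 2 with filterByExpr or 10 counts in every library, 6 with a minimum of 1 count and 0 to 3 with 1 library left out. The causes were not tested.

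Of 140 values of the receptors' log2 fold changes in 14 alternatives each, 120 kept their direction and their side of the threshold, 9 were newly called and 11 turned sign, all 11 in Clec4d, Clec4e and Mrc1. With limma voom these were 0.37, 0.0055 and 0.27, against -0.23, -0.29 and -0.13 by edgeR. With 1 library left out Clec4d ran from -0.76 to 0.15, Clec4e from -0.73 to 0.26 and Mrc1 from -0.61 to 0.29, with the lowest value of each without WT replicate 3. The difference in summed level, 1039 CPM, ran from 697 to 1296 CPM with 1 library left out, and that in the Mgl2 share of Mgl2 and Clec10a, 0.762 percentage points, from 0.412 (without WT replicate 2) to 0.981, each within the WT SD of the full value.

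Samples that share a replicate number correlated in their deviations from the group means at r = 0.262, 0.148 and 0.0224, so the numbers were not taken to pair them, and Nfkb2-/- replicate 3 correlated better with WT replicate 2 (0.164) than with its own number. With the replicate number as a block, 0 genes were called, of which 0 receptors and 0 in each list, with 3331 genes at an unadjusted p under 0.05, and Clec4d and Mrc1 turned to 0.22 and 0.17. Counting error weighs most on Clec9a, which had 28 to 159 counts a library, while the other receptors had 42 or more.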

Other observations

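The total counts of WT replicate 2 and Nfkb2-/- replicate 2 were 31622131 and 31622146 and so differed by 15 counts, while 2.72% of the tested genes had equal counts in both, and neither was counted as a copy of the other. Mitochondrial genes took 6.66% to 8.84% of the counts of a library and ribosomal protein genes 1.33% to 1.70%, with WT replicate 3 at 8.52% and 1.70%.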
